A study of Mus musculus with 32 samples.

Results

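Pdk4, Pdk2, Ucp3, Angptl4, Lpl, Cd36, Cpt1b, Acsl1, Hadha and Fabp3 are 10 genes of fatty acid use in muscle, and several of them are known to rise in fasting. They were taken by symbol from the 16634 gene entries of an RNA-seq table of mouse gastrocnemius, a hind limb muscle, counting an entry that lists several symbols as a match if a member is among them. Each symbol matched 1 entry. The 32 libraries came from mice aged 10 weeks on a mixed background, in 8 groups of 4: 2 genotypes at Zeitgeber times (ZT, hours from lights on) 0, 6, 12 and 18. Mutants carried Sf1-Cre and Sirt1loxP/loxP, in which the Sf1 promoter drives Cre recombinase and both alleles of Sirt1, the gene of an NAD-dependent deacetylase, can be cut. Controls carry only the genotype label "Control", and by the text of the series they had Sirt1loxP/loxP without Cre, so an effect of Cre itself cannot be told apart from one of the deletion. SF1 marks neurons of the ventromedial hypothalamus, which take part in energy balance, and is also made in the adrenal cortex, the gonads and the pituitary. By that text all groups shared the floxed alleles. Muscle RNA does not check the deletion: Sirt1 stood at 5.47 ± 0.506 FPKM (controls) against 5.20 ± 0.731 FPKM (mutants, SD, n = 16 each). Nothing in the labels says which libraries came from separate mice, and p-values measure the spread between these libraries. The study asked how loss of SIRT1 in SF1 neurons alters daily RNA variation in muscle. Whether food was withheld before any harvest is not given in the sources used here.

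Muscle shifts from glucose to fat when food is short. Lipoprotein lipase on the capillary wall frees fatty acids from circulating triglyceride, CD36 and FABP3 carry them into and through the fibre, ACSL1 joins them to coenzyme A, CPT1B admits them to mitochondria, and beta-oxidation breaks them down. PDK4 and PDK2 phosphorylate and switch off pyruvate dehydrogenase, which spares glucose, and PPAR nuclear receptors, which sense fatty acids, are known to drive Pdk4, Angptl4 and Ucp3. Mice eat mostly in the dark phase, after ZT12.

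Pdk4 (XLOC_017680) lies on chromosome 6 from 5483350 to 5496278 and Pdk2 (XLOC_003919) on chromosome 11 from 95026257 to 95041371, both on the minus strand. Lpl (XLOC_020718) lies on chromosome 8 from 68880554 to 68906932, plus strand, and its inhibitor gene Angptl4 (XLOC_009346) on chromosome 17 from 33774899 to 33781575, minus strand. Cd36 (XLOC_016371) spans chromosome 5 from 17781689 to 17888959, minus strand, and Fabp3 (XLOC_014670) chromosome 4 from 130308777 to 130315463, plus strand. Acsl1 (XLOC_020673) spans chromosome 8 from 46471036 to 46536051, plus strand, and Ucp3 (XLOC_018944) chromosome 7 from 100472990 to 100486432, plus strand. Coordinates are those of the deposited table, in mm10, with strands from GENCODE M21 of the same build. Hadha (XLOC_016426) is placed on chromosome 5 from 30103583 to 30154980, minus strand, an interval that starts before the annotated gene (30118304) and also spans Garem2 and 3110082J24Rik. The Cpt1b entry (XLOC_007624, chromosome 15 from 89416404 to 89429927, minus strand) joins Cpt1b with its neighbour Chkb, a choline kinase gene, and their fusion transcript, so its value is not that of Cpt1b alone. Pdk2, Ucp3, Acsl1 and Fabp3 overlap annotated genes on the opposite strand (Gm11513, Gm10603, Gm45244 and Zcchc17), and whether strand was used in counting is not given in the sources used here.

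Promoter sequence is shown for the 3 members that passed the rhythm test below, to let the letters upstream of genes that moved together be compared. RefSeq promoters (GRCm38.p6) were held for 7 of the 10 members. The 250 bases before the start site of each, 5′ to 3′ on the gene's strand, carry in capitals any match to 7 motifs searched on both strands: a PPAR response element (AGGTCANAGGTCA), the nuclear receptor core site that it contains (AGGTCA), an E box (CACGTG), a D box (TTATGTAA), a FOXO site (GTAAACA), a glucocorticoid receptor core site (AGAACA) and a CCAAT box (CCAAT). Pdk4 is at chr6:5496279-5496528, minus strand, Ucp3 at chr7:100472741-100472990, plus strand, and Acsl1 at chr8:46470787-46471036, plus strand.
Pdk4: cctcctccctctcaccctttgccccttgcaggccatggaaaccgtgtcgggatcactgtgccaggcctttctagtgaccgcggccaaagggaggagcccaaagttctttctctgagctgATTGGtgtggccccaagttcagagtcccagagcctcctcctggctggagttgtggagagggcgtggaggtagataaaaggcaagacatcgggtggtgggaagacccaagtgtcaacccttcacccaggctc
Ucp3: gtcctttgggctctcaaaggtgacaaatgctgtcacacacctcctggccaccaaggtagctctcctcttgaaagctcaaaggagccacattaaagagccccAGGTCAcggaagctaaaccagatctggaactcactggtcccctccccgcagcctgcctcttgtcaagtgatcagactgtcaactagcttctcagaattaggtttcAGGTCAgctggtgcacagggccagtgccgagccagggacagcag
Acsl1: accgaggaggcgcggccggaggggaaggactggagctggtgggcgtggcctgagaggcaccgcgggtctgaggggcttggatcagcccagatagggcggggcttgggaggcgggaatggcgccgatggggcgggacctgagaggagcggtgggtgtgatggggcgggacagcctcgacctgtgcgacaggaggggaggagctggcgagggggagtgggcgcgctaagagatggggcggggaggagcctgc

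The Pdk4 stretch holds 1 CCAAT box, read on the opposite strand as ATTGG, 127 bases before the start site. The Ucp3 stretch holds 2 nuclear receptor core sites, 144 and 39 bases before the start site, and the Acsl1 stretch, with 72% G and C against 58.8% in Pdk4 and 54.8% in Ucp3, holds none of the 7 motifs. Among all 32851 promoters of 300 bases, 16.3% hold the nuclear receptor core site, 37.4% a CCAAT box, 7.15% an E box, 3.65% the FOXO site, 19.0% the glucocorticoid core site, 0.938% the D box and 0.0396% the PPAR element as spelled. Over that longer window, which runs 50 bases past the start, the nuclear receptor core site was also found in Cd36, the E box in Pdk2, and the CCAAT box in Acsl1, Cd36 and Pdk2. These are matches of letters, not measured binding.

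RNA of all 10 genes was measurable in every library, so all 10 passed the filter of at least 1 FPKM in 4 libraries and entered the tests over 11975 genes. FPKM is scaled by transcript length, which allows levels of different genes to be set side by side. Over 32 libraries the mean levels ran from Pdk2 (228 ± 33.3 FPKM, SD, n = 32) through Lpl (219 ± 53.8), Cd36 (198 ± 34.6), Pdk4 (168 ± 96.8), the Cpt1b entry (138 ± 12.2), Hadha (132 ± 10.9), Fabp3 (99.5 ± 24.1), Acsl1 (96.9 ± 19.4) and Ucp3 (48.9 ± 25.1) down to Angptl4 (7.34 ± 5.42). Neighbours in that order were not cleanly separated for Pdk2 and Lpl (Pdk2 higher in 13 of 32 libraries), Cd36 and Pdk4 (21 of 32), Pdk4 and Cpt1b (18 of 32), and Fabp3 and Acsl1 (17 of 32). Lpl exceeded Cd36 in 28, Cpt1b exceeded Hadha in 25, Hadha exceeded Fabp3 in 29, Acsl1 exceeded Ucp3 in 30 and Ucp3 exceeded Angptl4 in all 32 libraries. The spread differed between genes too: the coefficient of variation was 73.9% for Angptl4, 57.7% for Pdk4 and 51.4% for Ucp3, but 8.23% for Hadha and 8.83% for the Cpt1b entry.

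Muscle RNA prevailed in the libraries, and the level of fat cell genes varied between them. Ckm, the creatine kinase of muscle, lay between 15672 and 22140 FPKM. Muscle genes varied too: the 8 listed, Ckm among them, summed to 43584 to 104301 FPKM, with the lowest sum in a mutant ZT12 library. Tnnt3 ran from 569 to 33494 FPKM, Tnni2 from 6913 to 27981 and Myod1 from 6.56 to 43.7. The summed level of 8 adipocyte genes (all detected in every library) ranged from 436 to 2623 FPKM, and that of the brown adipocyte genes Ucp1 and Cidea from 1.15 to 276 FPKM, with a mean of 37.0 in controls and 74.5 in mutants. Slow fibre genes summed to 1558 ± 412 FPKM (controls) against 1251 ± 406 FPKM (mutants, SD, n = 16 each). Endothelial genes summed to 110 to 181 FPKM, 4 macrophage genes to 12.6 to 45.9, 6 lymphocyte genes to 1.43 to 49.6, and 3 liver genes to 0.192 to 69.9 with a median of 0.758. Depth in reads is unknown from FPKM.

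**Figure D1:**
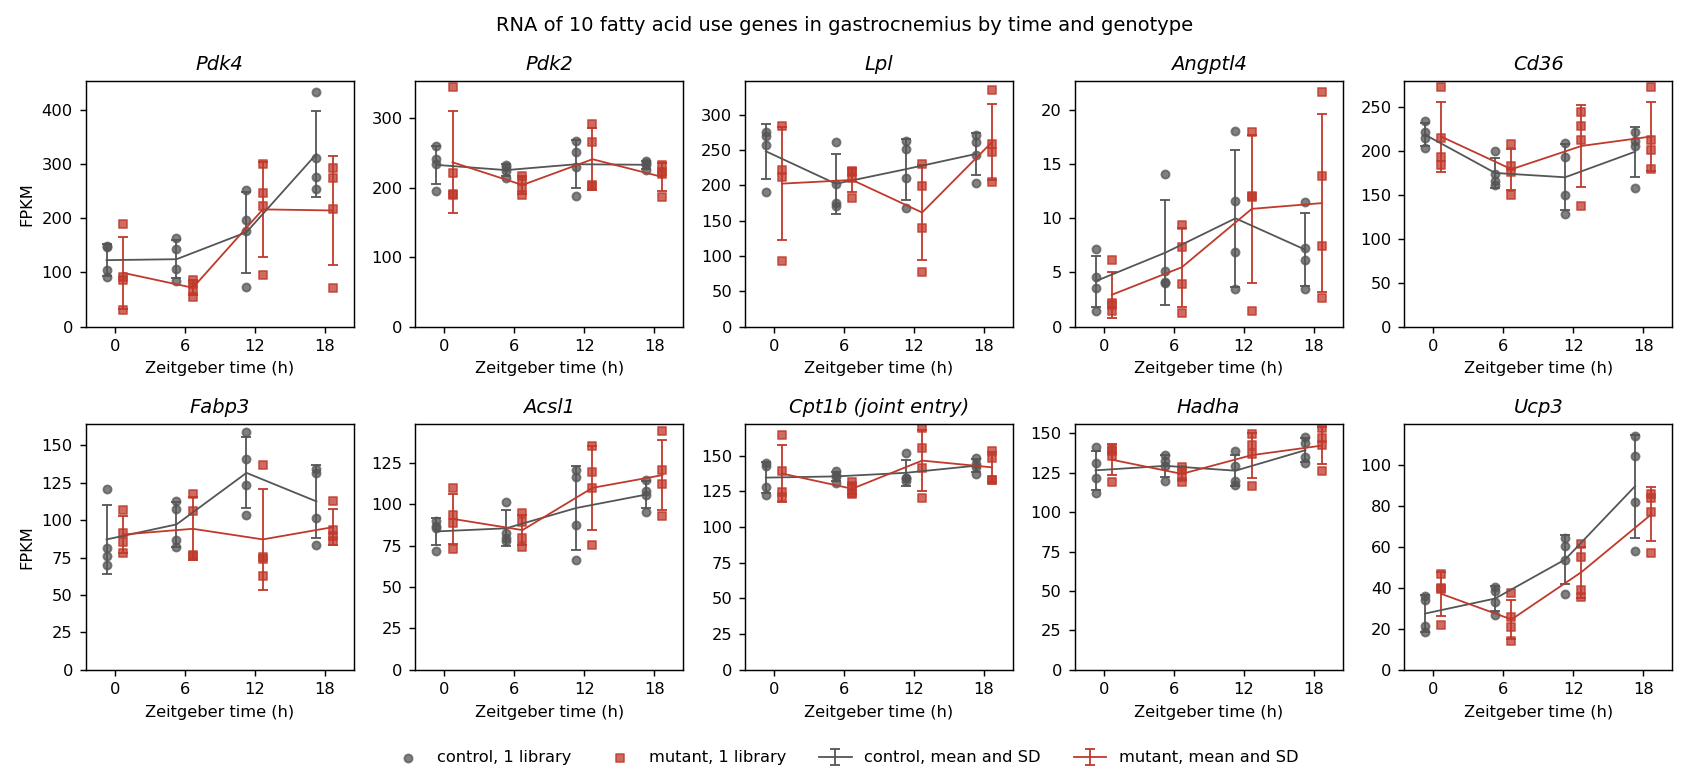
Level (FPKM, vertical axis from 0) of each of the 10 genes by Zeitgeber time (h) in control libraries (grey circles) and mutant libraries (red squares), with lines and bars for the group mean and SD of 4 libraries. Pdk4 and Ucp3 are highest at ZT18 in controls, at 319 and 89.7 FPKM, whereas Pdk2, the Cpt1b entry and Hadha stay within a narrow band.

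Across the day, the means of Ucp3, Pdk4 and Acsl1 over both genotypes were higher at ZT12 and ZT18 than at ZT0 and ZT6. No member had a fitted peak in the light phase, though the highest measured mean of Cd36 was at ZT0, lights on. The 24 h rhythm test (an F test in limma of the ZT0 against ZT12 and ZT6 against ZT18 contrasts, both genotypes together) passed for 3 of 10 members, where 11.4% of the 11975 genes passed, and where 5.39% passed with a peak after ZT12. The fitted peak of all 10 members fell between ZT12 and ZT24, with or without a call, and 49.8% of all genes tested had a peak there. The median amplitude (log2, mean to peak) was 0.18 over the members and 0.07 over all genes. ZT0 and ZT12 libraries carried 1 set of index sequences and ZT6 and ZT18 libraries another, so both contrasts lie within a set. Sequencing was in 4 pools of 8, and which library went into which pool is unknown here.

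Pdk4, the pyruvate dehydrogenase kinase known for its rise in fasting, was 2.72 times as high at ZT18 as at ZT6. In controls it stood at 147, 104, 149 and 91.0 FPKM at ZT0, at 85.1, 144, 106 and 163 at ZT6, at 72.7, 176, 197 and 252 at ZT12, and at 312, 276, 254 and 434 at ZT18. In mutants it stood at 190.04, 90.8, 85.5 and 31.4 FPKM at ZT0, at 55.3, 67.1, 78.0 and 86.5 at ZT6, at 301, 224, 94.9 and 247 at ZT12, and at 71.2, 275, 218 and 294 at ZT18. All 4 control libraries of ZT18 lay above all 4 of ZT6, while in mutants 1 library of ZT18, at 71.2 FPKM, lay among those of ZT6. The ZT6 minus ZT18 difference was -1.38 on the log2(FPKM + 1) scale (SE 0.317, limma adjusted p = 0.00494). The 24 h amplitude was 0.81 with a peak at ZT15.9 (adjusted p = 0.00262), and it stayed past the threshold without any 1 library (adjusted p from 0.000278 to 0.00687).

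Within each genotype the Pdk4 rhythm was less certain. The amplitude was 0.94 in mutants (limma adjusted p = 0.0341, where 3.92% of genes passed, 1.75% with a peak after ZT12) and 0.71 in controls (adjusted p = 0.126, where 5.55% passed, 2.60% of all genes with a peak after ZT12), and the difference of the rhythms between genotypes did not pass (adjusted p = 0.909). Fitted on mutant libraries alone, the mutant rhythm had adjusted p = 0.169, and fitted on control libraries alone, the control rhythm had adjusted p = 0.0286. The mutant call was also lost (adjusted p from 0.0550 to 0.0901) when 1 of 10 mutant libraries was left out: number 3 of ZT0, numbers 0, 1 and 2 of ZT6, numbers 0, 1 and 3 of ZT12, and numbers 1, 2 and 3 of ZT18.

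Pdk2, the isoform that is abundant in resting muscle, was flat. Its group means ran from 204 to 241 FPKM, its amplitude was 0.03 (limma adjusted p = 0.923), and its ZT6 minus ZT18 difference was -0.06, with a 95% interval from -0.27 to 0.15. The highest library, mutant ZT0 library 2, stood at 345 FPKM and the lowest, mutant ZT18 library 0, at 186.

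The balance of the 2 kinases lay further toward Pdk4 at ZT12 and ZT18 than at ZT0 and ZT6. The Pdk4 to Pdk2 ratio of FPKM went from 0.490 ± 0.244 at ZT0 and 0.453 ± 0.154 at ZT6 to 0.841 ± 0.361 at ZT12, and was highest, 1.17 ± 0.407, at ZT18 (SD, n = 8 each). Pdk4 was the more abundant of the pair in 0 of 8 libraries at ZT0 and ZT6, in 3 of 8 at ZT12 and in 6 of 8 at ZT18. The times differed by up to 1.33 in log2 ratio (permutation p = 0.00125, adjusted p = 0.00500 over 4 ratio tests). Genotypes did not differ past the threshold: controls had a ratio of 0.813 ± 0.438, mutants one of 0.662 ± 0.391 (SD, n = 16 each), a log2 difference of -0.37 (permutation p = 0.134, adjusted p = 0.179), which had an unadjusted permutation p of 0.0309 without control ZT12 library 0, at -0.48.

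**Figure D2:**
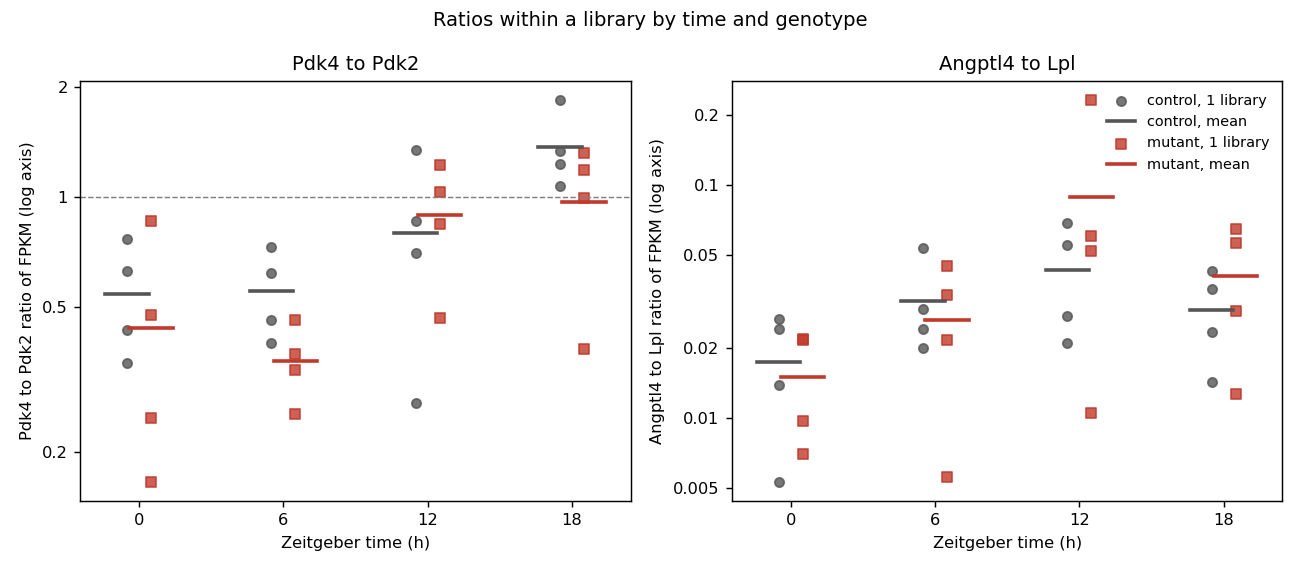
Ratio of FPKM within each library (log axis) by Zeitgeber time (h), for Pdk4 to Pdk2 and for Angptl4 to Lpl, in control libraries (grey circles) and mutant libraries (red squares), with a short line at each group mean. The Pdk4 to Pdk2 ratio passes 1 (dashed line) in 6 of 8 libraries at ZT18 and in none at ZT0 or ZT6.

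Among other genes of pyruvate oxidation, 2 of 11 tested passed the rhythm test, against 11.4% of all genes. Mpc1, a subunit of the mitochondrial pyruvate carrier, peaked at ZT22.0 (amplitude 0.37, limma adjusted p = 8.44e-05), and Pdp1, a phosphatase that reverses PDK action, peaked at ZT15.2 (0.26, adjusted p = 0.00872). Pdp1 was at its lowest at ZT0 and its highest at ZT18, going from 31.7 ± 4.63 FPKM at ZT0 to 48.1 ± 7.95 at ZT18 (SD, n = 8 each). Its homologue Pdp2 (0.18, adjusted p = 0.0552) and the kinase gene Pdk1 (0.06, adjusted p = 0.682) did not pass.

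Lpl, whose product frees fatty acids for uptake, had means by time between 192 and 253 FPKM and an amplitude of 0.19 that did not pass (limma adjusted p = 0.411). It passed with array weights, which down-weight libraries far from their group (adjusted p = 0.0354), and without mutant libraries 2 and 3 of ZT0 and 3 of ZT12, a set chosen after seeing the data (amplitude 0.31, adjusted p = 0.0429). Angptl4, which encodes a secreted inhibitor of lipoprotein lipase, was the least abundant and most variable member. In controls it stood at 3.53, 7.14, 4.58 and 1.46 FPKM at ZT0, at 4.08, 5.15, 4.03 and 14.03 at ZT6, at 3.51, 6.85, 18.0 and 11.5 at ZT12, and at 7.24, 11.5, 3.47 and 6.10 at ZT18. In mutants it stood at 1.47, 6.11, 2.02 and 2.13 FPKM at ZT0, at 1.22, 9.40, 3.92 and 7.34 at ZT6, at 12.1, 17.9, 1.47 and 11.9 at ZT12, and at 2.59, 7.46, 13.9 and 21.6 at ZT18. Every group overlapped every other in part. The mean was 3.56 ± 2.19 FPKM at ZT0 and 10.4 ± 6.11 at ZT12 (SD, n = 8 each), a log2 difference of -1.20 (SE 0.431, limma adjusted p = 0.105). The rhythm did not pass (amplitude 0.65, peak ZT13.5, adjusted p = 0.115), and did pass without mutant ZT12 library 2 (amplitude 0.80, adjusted p = 0.0209). Without that library the ZT0 minus ZT12 difference, at -1.53, passed as well (limma adjusted p = 0.0217).

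Between libraries of a group Angptl4 followed the level of fat cell genes. Over 32 libraries its deviations from the group means (log2) had r = 0.86 with a score of the 8 adipocyte genes (Spearman rho 0.83, permutation adjusted p = 0.000200 for each, over 40 relations between members and marker scores) and r = 0.87 with the brown adipocyte score (rho 0.84). Without the 2 libraries farthest from the median score r was 0.81 and 0.84. The relation with the adipocyte score held at ZT0 and ZT12 (r = 0.89) and at ZT6 and ZT18 (0.82), and in controls (0.73) and mutants (0.92). Mutant ZT12 library 2, with the lowest adipocyte sum (436 FPKM) and Adipoq, the adiponectin gene, at 7.11 FPKM, had 1.47 FPKM of Angptl4. The 8 adipocyte genes summed to 1169 ± 612 FPKM at ZT0 and 1146 ± 490 at ZT12 (SD, n = 8 each). The brown adipocyte genes summed to 36.7 ± 57.8 FPKM at ZT0 and 84.7 ± 93.6 at ZT12 (SD, n = 8 each). Whether fat cell RNA plays a part in the Angptl4 difference between these times was not tested. With the adipocyte and slow fibre scores as covariates the Angptl4 rhythm passed with a like amplitude (0.68, adjusted p = 0.00250), as it did with the adipocyte and brown adipocyte scores, a choice made after seeing the data (0.59, adjusted p = 0.00165). In whole tissue, fewer cells of a type and less RNA per cell cannot be told apart.

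**Figure D3:**
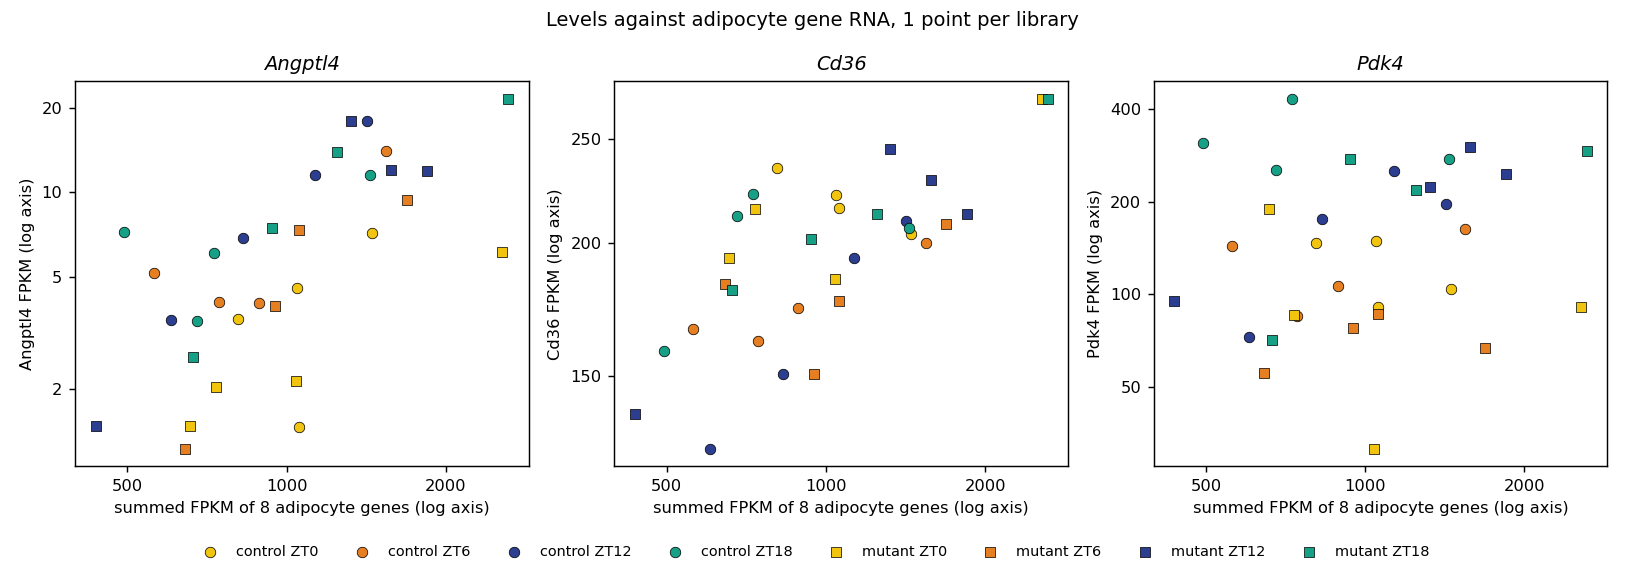
Level of Angptl4, Cd36 and Pdk4 (FPKM, log axis) against the summed FPKM of 8 adipocyte genes (log axis), 1 point per library, coloured by Zeitgeber time, circles for controls and squares for mutants. Angptl4 and Cd36 climb with adipocyte RNA, which spans 436 to 2623 FPKM, and Pdk4 does not follow it closely.

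The Angptl4 to Lpl ratio was lowest at ZT0 (0.0162 ± 0.00830) and highest at ZT12 (0.0659 ± 0.0702), with 0.0291 ± 0.0151 for ZT6 and 0.0348 ± 0.0188 for ZT18 (SD, n = 8 each). It differed little between genotypes, by 0.04 in log2 ratio (permutation p = 0.922). The highest ratio, 0.232, was in 1 mutant library of ZT12 that had both high Angptl4 (17.9 FPKM) and the lowest Lpl (77.4 FPKM). The times differed by up to 1.68 in log2 ratio, which did not pass after adjustment (permutation p = 0.0267, adjusted p = 0.0535). Without control ZT0 library 3, mutant ZT0 library 0 or 3, or mutant ZT12 library 1 the unadjusted p lay between 0.0528 and 0.0676.

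Of 12 other tested genes of lipoprotein lipase and fatty acid uptake 1 passed the rhythm test, against 11.4% of all genes. This was Gpihbp1, whose product anchors lipoprotein lipase to the capillary wall. It rose from 41.2 ± 3.98 FPKM at ZT6 to 68.0 ± 9.99 at ZT18 (SD, n = 8 each; amplitude 0.36, peak ZT18.7, limma adjusted p = 5.51e-05). The endothelial genes summed to 139.7 ± 10.9 FPKM at ZT6, 127.4 ± 8.79 at ZT18 and, at their highest, 162.5 ± 15.2 at ZT0 (SD, n = 8 each). Their relation to Gpihbp1 was not tested. Got2 (adjusted p = 0.325), Vldlr (0.403) and Fabp5 (0.406) came next and did not pass.

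Cd36, the membrane carrier of fatty acids, had its highest mean at ZT0 (218 ± 27.3 FPKM) and its lowest at ZT6 (177 ± 19.2, SD, n = 8 each), and its rhythm did not pass (amplitude 0.16, peak ZT21.1, limma adjusted p = 0.170). It passed with array weights (adjusted p = 0.0359) and with the adipocyte and slow fibre covariates (0.0190). Cd36 followed the adipocyte score between libraries of a group (r = 0.80, permutation adjusted p = 0.00160, rho 0.73, and r = 0.70 without the 2 farthest libraries), and within controls (0.60) and mutants (0.90). The 2 highest libraries, mutant ZT0 library 1 and mutant ZT18 library 3, at 273 FPKM each, were also those with the highest adipocyte sums, 2555 and 2623 FPKM. Cd36 is made by fat cells and capillary endothelium as well as by muscle.

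Fabp3, the cytosolic fatty acid binding protein of heart and muscle, had an amplitude of 0.32 in controls (peak ZT13.2, limma adjusted p = 0.144) and 0.06 in mutants (adjusted p = 0.954). In controls it stood at 121, 81.4, 75.9 and 70.2 FPKM at ZT0 and at 123, 103, 159 and 141 at ZT12. In mutants it stood at 107, 78.1, 85.3 and 91.8 FPKM at ZT0 and at 137, 74.0, 75.1 and 62.6 at ZT12. The controls of ZT12 are the highest group and 3 of the 4 mutants of ZT12 lie below all of them. The difference of the rhythms had the smallest unadjusted p among the members (0.0588) and did not pass (adjusted p = 0.880). No gene in the table passed that test (0% of 11975, and 5.34%, or 640 genes, at an unadjusted p under 0.05, with 0 of 10 members among them).

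Acsl1, which activates long-chain fatty acids, rose from ZT6 to ZT18 by a smaller factor than Pdk4. In controls it stood at 87.0, 71.7, 85.8 and 89.7 FPKM at ZT0, at 78.1, 82.6, 79.7 and 101.5 at ZT6, at 66.5, 87.4, 116 and 121 at ZT12, and at 95.2, 115, 108 and 105 at ZT18. In mutants it stood at 93.6, 109.6, 88.5 and 73.0 FPKM at ZT0, at 79.7, 89.1, 74.0 and 94.7 at ZT6, at 119, 109.6, 75.4 and 135 at ZT12, and at 112, 93.0, 121 and 144 at ZT18. In each genotype 3 of 4 libraries of ZT18 lay above all of ZT6. The mean went from 84.9 ± 9.38 FPKM at ZT6 to 112 ± 16.2 at ZT18 (SD, n = 8 each), 1.32 times. The ZT6 minus ZT18 difference was -0.39 (SE 0.121, limma adjusted p = 0.0481) and the amplitude 0.22 with a peak at ZT16.0 (adjusted p = 0.0387).

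Both Acsl1 calls were near the threshold. The rhythm call was lost with quantile normalization (adjusted p = 0.0857), with the endothelial score as a covariate (0.0691), without 3 mutant libraries (0.0665), and without any 1 of 13 libraries (0.0538 to 0.0811). Among controls these were number 1 of ZT0, numbers 0, 1 and 2 of ZT6, number 2 of ZT12 and numbers 1, 2 and 3 of ZT18, and among mutants numbers 0 and 2 of ZT6, number 0 of ZT12 and numbers 2 and 3 of ZT18. The ZT6 minus ZT18 call was lost without any 1 of 19 libraries (adjusted p from 0.0518 to 0.121). Among controls these were numbers 0, 2 and 3 of ZT0, numbers 0, 1 and 2 of ZT6, number 1 of ZT12 and numbers 1, 2 and 3 of ZT18, and among mutants number 0 of ZT0, numbers 0, 1 and 2 of ZT6, numbers 0 and 1 of ZT12 and numbers 0, 2 and 3 of ZT18. It was also lost without the filter (0.0612), with upper-quartile scaling (0.0520) and with quantile normalization (0.134). Acsl1 also followed the adipocyte score between libraries of a group (r = 0.70, permutation adjusted p = 0.00367, rho 0.67, and r = 0.60 without the 2 farthest libraries). With the adipocyte and slow fibre covariates, and with the adipocyte and brown adipocyte covariates, its rhythm stayed past the threshold (adjusted p = 0.00187 and 0.00324).

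The Cpt1b entry and Hadha were close to flat. Cpt1b, the carnitine palmitoyltransferase of muscle mitochondria and the gate to oxidation, had group means from 127 to 146 FPKM and an amplitude of 0.07 (limma adjusted p = 0.391). It passed with the endothelial score as a covariate (amplitude 0.15, adjusted p = 0.0352), and its deviations followed that score (r = 0.58, permutation adjusted p = 0.0207, rho 0.54, and r = 0.55 without the 2 farthest libraries). Hadha, the alpha subunit of the trifunctional protein of beta-oxidation, went from 127 ± 6.07 FPKM at ZT6 to 141 ± 9.21 at ZT18 (SD, n = 8 each), a difference of -0.15 (SE 0.0595, adjusted p = 0.154). That difference passed with array weights (adjusted p = 0.0482), and the rhythm did not pass (amplitude 0.07, adjusted p = 0.234).

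Other genes of fatty acid activation and the carnitine shuttle passed in 3 of 14 tested, against 11.4% of all genes, all with a peak after ZT12. Cpt1a, the carnitine palmitoyltransferase that prevails in liver and is present at low level in muscle, rose from 3.10 ± 0.383 FPKM at ZT6 to 5.31 ± 1.30 at ZT12 (SD, n = 8 each; amplitude 0.38, peak ZT15.4, limma adjusted p = 0.000254). Mlycd, which removes malonyl-CoA, the inhibitor of CPT1, rose from 30.2 ± 3.11 FPKM at ZT6 to 38.8 ± 3.39 at ZT18 (amplitude 0.19, adjusted p = 0.0118). Acot2, a mitochondrial acyl-CoA thioesterase, rose from 1.94 ± 0.373 to 3.39 ± 0.673 FPKM (amplitude 0.29, adjusted p = 0.0438). Slc25a20, the carnitine-acylcarnitine carrier, did not pass (0.15, adjusted p = 0.142). Of 15 genes of mitochondrial beta-oxidation 0 passed in limma (0 also at an unadjusted p under 0.05), with a median amplitude of 0.07 as over all genes. The closest was Acadl, long-chain acyl-CoA dehydrogenase (0.15, adjusted p = 0.239).

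Ucp3, a mitochondrial carrier of muscle that is known to rise with fatty acid supply, had the firmest rhythm of the 10. In controls it stood at 36.2, 21.4, 33.9 and 18.4 FPKM at ZT0, at 26.9, 40.6, 33.1 and 38.6 at ZT6, at 37.2, 53.4, 64.5 and 60.3 at ZT12, and at 105, 82.1, 57.8 and 114 at ZT18. In mutants it stood at 47.0, 39.6, 39.7 and 21.8 FPKM at ZT0, at 14.3, 20.9, 25.7 and 37.4 at ZT6, at 61.2, 39.0, 35.5 and 55.3 at ZT12, and at 57.1, 76.9, 86.0 and 83.8 at ZT18. All 8 libraries of ZT18 lay above all 8 of ZT6. The ZT18 mean was 2.79 times the ZT6 mean, a ZT6 minus ZT18 difference of -1.48 (SE 0.193, limma adjusted p = 6.04e-06). The amplitude was 0.81 with a peak at ZT16.4 (adjusted p = 4.27e-06), and the rhythm passed in controls (0.82, adjusted p = 0.00136) and in mutants (0.85, adjusted p = 0.00102). It stayed past the threshold in all 3 tests under every alternative run, with adjusted p at most 0.0104. The rhythm difference between genotypes did not pass (adjusted p = 0.902).

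In the contrast of ZT0 minus ZT12, Ucp3 was the 1 member that passed (-0.67, SE 0.193, limma adjusted p = 0.0350), where 5.71% of genes passed and 1.16% passed in that direction. At an unadjusted p under 0.05 there were 3 of 10 members (Ucp3, Angptl4 and Pdk4), where 17.7% of genes were under it. This call was lost when 1 of 8 libraries was left out (adjusted p from 0.0567 to 0.0900): controls 1 and 3 of ZT0 and 1, 2 and 3 of ZT12, and mutants 3 of ZT0 and 0 and 3 of ZT12. It was lost too with each of the 3 covariate fits (0.103, 0.134 and 0.184), with array weights (0.0531) and without 3 mutant libraries together (0.242). The same contrast of Pdk4 (-0.83, adjusted p = 0.134) passed only without mutant ZT0 library 0 (-1.03, adjusted p = 0.0404). The 12 h component of Ucp3 was -0.29 (adjusted p = 0.338), and 0 of 10 members passed that test in limma, with 1 of 10 at an unadjusted p under 0.05, where 0.0668% of all genes passed and 14.1% were under that unadjusted p.

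In the ZT6 minus ZT18 contrast all 10 members had a negative value, where 50.2% of all genes had a positive one, with a median of -0.26 over the members and 0.00 over all genes. Pdk4, Ucp3 and Acsl1 passed, 3 of 10, where 7.23% of all genes passed and 3.30% passed in that direction. Without overlap of the 4 and 4 libraries, 2 members (Pdk4 and Ucp3) were higher at ZT18 in controls, against 3.79% of all genes, and 2 (Ucp3 and the Cpt1b entry) in mutants, against 5.66%. Between ZT0 and ZT12, 1 member (Ucp3) was higher at ZT12 without overlap in controls, against 3.98%, and 0 in mutants, against 1.04%.

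Regulators of these pathways were measured beside the members. Of 18 tested regulators 4 passed the rhythm test, where 11.4% of all genes passed. Klf15, a transcription factor of the fasting response, rose from 9.30 ± 1.69 FPKM at ZT6 to 16.2 ± 4.62 at ZT18 (SD, n = 8 each; amplitude 0.37, peak ZT17.1, limma adjusted p = 0.0244). Foxo3 (0.17, peak ZT19.9, adjusted p = 0.0187) and the glucocorticoid receptor gene Nr3c1 (0.13, peak ZT23.8, adjusted p = 0.0272) also peaked after ZT12, and Rxrg, a partner of PPARs, at ZT8.55 (0.23, adjusted p = 0.0197).

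Between genotypes no member differed past the threshold, over all times or at any time. Over all times, 0 of 10 members passed in limma and 0 had an unadjusted p under 0.05 (3 of 10 were higher in mutants, against 51.3% of genes), where 3 of 11975 genes (0.0251%) passed and 6.48%, 776 genes, had an unadjusted p under 0.05. Pdk4 was at 185 ± 98.2 FPKM (controls) against 151 ± 95.3 FPKM (mutants, SD, n = 16 each), a mutant minus control difference of -0.42 (SE 0.224, 95% interval -0.88 to 0.04, adjusted p = 0.756). Fabp3 was at 107 ± 26.2 and 91.8 ± 19.6 FPKM, a difference of -0.21 (interval -0.42 to 0.00, adjusted p = 0.756). Lpl was at 229 ± 39.6 and 208 ± 64.6 FPKM (-0.20, interval -0.48 to 0.08, adjusted p = 0.772). For the others the difference was -0.13 for Ucp3, -0.09 for Angptl4, -0.06 for Pdk2, 0.00 for the Cpt1b entry, 0.04 for Hadha, 0.10 for Cd36 and 0.10 for Acsl1. The intervals of Hadha (-0.05 to 0.12) and the Cpt1b entry (-0.10 to 0.09) were narrow, and that of Angptl4 (-0.71 to 0.54) was wide.

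**Figure D4:**
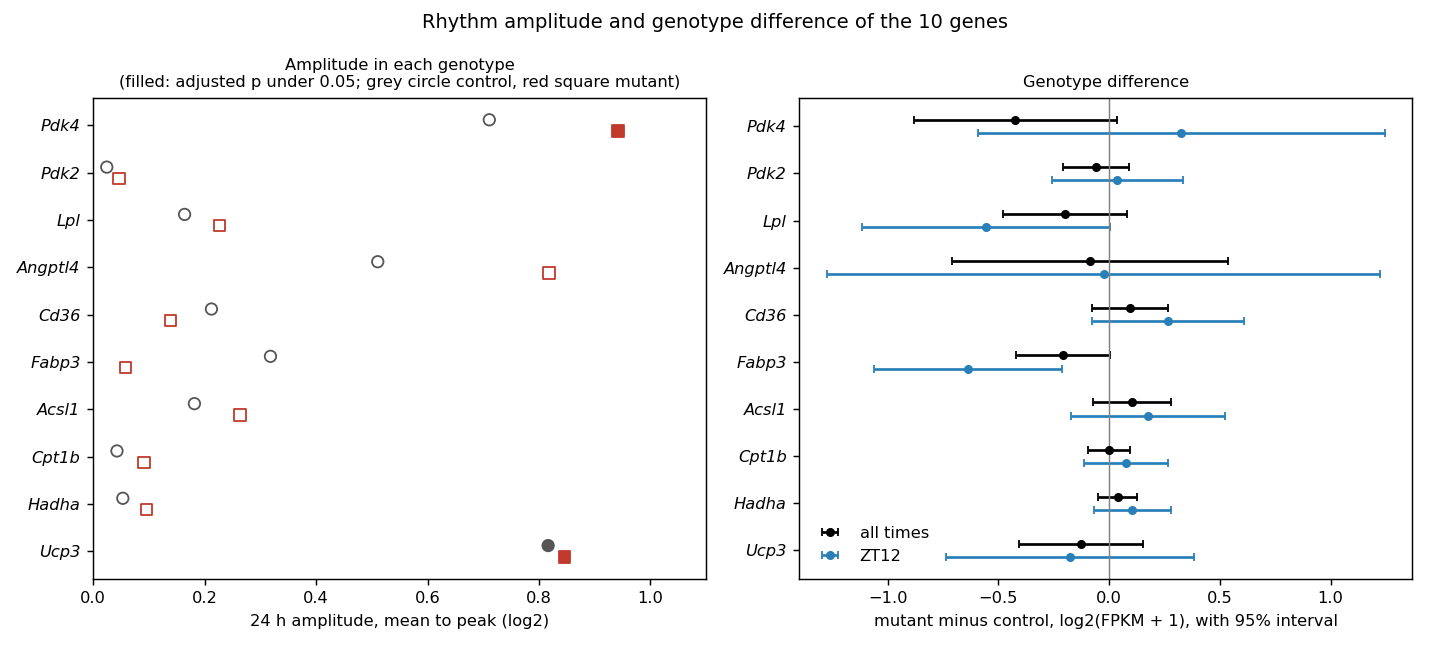
Left, 24 h amplitude (log2, mean to peak) of each gene in controls (grey circles) and mutants (red squares), filled where the limma adjusted p was under 0.05; right, mutant minus control difference on the log2(FPKM + 1) scale with its 95% interval, over all times (black) and at ZT12 (blue). Ucp3 is filled in both genotypes and Pdk4 in mutants, and at ZT12 the interval of Fabp3 alone lies to 1 side of 0, without passing after adjustment.

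At single times the Pdk4 difference was negative at ZT0 (-0.53), ZT6 (-0.76) and ZT18 (-0.72) and positive at ZT12 (0.33), each with an SE of 0.448 and limma adjusted p = 0.786, 0.512, 1 and 0.727 in that order. At ZT6 the mutant mean was 71.7 ± 13.5 FPKM and the control mean 124.5 ± 35.3 (SD, n = 4 each), and the highest mutant library (86.5 FPKM) lay just above the lowest control library (85.1). For Ucp3 the difference was 0.42 at ZT0 and -0.55 at ZT6 (SE 0.273, limma adjusted p = 0.711 and 0.480). No member's 4 mutant and 4 control libraries were free of overlap at any time, where between 0.843% (ZT18) and 5.67% (ZT12) of genes were higher without overlap, and 1.45% (ZT0), 8.73% (ZT6), 1.73% (ZT12) and 1.66% (ZT18) lower. Whether the genotype difference changed with time was tested, and it passed for 0 of 10 members and for 0 of 11975 genes in limma, and 0 of 10 members against 14.1% of genes had an unadjusted p under 0.05. The closest members were Fabp3 (unadjusted p = 0.104) and Ucp3 (0.114).

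At ZT12 Fabp3 was the 1 member with an unadjusted p under 0.05, where 17.4% of genes were under it and 0.0251% passed after adjustment. Its mean was 132 ± 23.8 FPKM (controls) against 87.2 ± 33.7 FPKM (mutants, SD, n = 4 each), a difference of -0.64 (SE 0.207, 95% interval -1.06 to -0.21, limma adjusted p = 0.154). The groups overlapped through mutant library 0, at 137 FPKM. Fabp3 is known to be richer in slow fibres, whose genes at ZT12 summed to 1828 ± 462 FPKM (controls) against 1236 ± 680 FPKM (mutants, SD, n = 4 each). With the adipocyte and slow fibre scores together as covariates the Fabp3 difference was -0.41 (limma adjusted p = 0.415). Between libraries of a group Fabp3 did not follow the slow fibre score past the threshold (r = 0.22, permutation adjusted p = 0.654). That r was -0.32 in controls and 0.62 in mutants. Whether fibre content plays a part in the Fabp3 difference was not tested. Lpl at ZT12 stood at 168, 251, 262 and 209.8 FPKM in controls and at 199, 77.4, 140 and 229 in mutants, a difference of -0.55 (SE 0.273, adjusted p = 0.292). Without 3 mutant libraries (ZT0 library 2 and 3 and ZT12 library 3), which were picked after seeing how counts over the whole table depended on them, that of Lpl was -0.76 (adjusted p = 0.0309).

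In the other 3 single-time contrasts 0 of 10 members passed in limma or had an unadjusted p under 0.05. There 0.0167% of all genes passed at ZT0, at ZT6 and at ZT18, and 8.46%, 10.4% and 2.88% had an unadjusted p under 0.05. Among the genes of the lists of pyruvate oxidation, uptake, carnitine shuttle, beta-oxidation and regulators 0 passed over all times. The smallest p were those of Pdhb, a subunit of pyruvate dehydrogenase (0.15, SE 0.0510), Crat, carnitine acetyltransferase (0.13, SE 0.0452), Mpc1 (0.21, SE 0.0770) and Gpihbp1 (-0.19, SE 0.0719), each with a limma adjusted p = 0.756.

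Deviations of libraries from their group means were compared between members. Of 45 pairs, 13 had correlated deviations past the threshold over 32 libraries, all positive, and they linked 8 of the 10 members. A positive r was found in 40 of 45 pairs (88.9%), where 52.8% of all pairs of the 11975 tested genes had one, and an r above 0.5 in 14 of 45 (31.1%), where 6.78% of all pairs had one. These shares describe the 32 libraries and were not tested. Cd36 and Acsl1 had r = 0.83 (Spearman rho 0.79, permutation adjusted p = 0.000900), Pdk4 and Ucp3 r = 0.79 (rho 0.81, adjusted p = 0.000450), Cpt1b and Hadha r = 0.76 (rho 0.75, adjusted p = 0.000675) and Pdk2 and Cpt1b r = 0.74 (rho 0.56, adjusted p = 0.00971). Without the 2 farthest libraries these were 0.75, 0.76, 0.76 and 0.68. Pdk4 and Ucp3 correlated in the libraries of ZT0 and ZT12 (r = 0.87), in those of ZT6 and ZT18 (0.68), in controls (0.83) and in mutants (0.78). Pdk2 and Cpt1b did so unevenly, with r = 0.86 in mutants and 0.35 in controls.

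Cd36, Acsl1 and Angptl4, each of which followed the adipocyte score, were also correlated with each other: r = 0.72 for Angptl4 and Cd36 (rho 0.68, permutation adjusted p = 0.00292) and 0.65 for Angptl4 and Acsl1 (rho 0.61, adjusted p = 0.0104). Hadha was correlated with Cd36 (r = 0.71, rho 0.75, permutation adjusted p = 0.00101) and with Acsl1 (r = 0.71, rho 0.69, adjusted p = 0.00292). Smaller values past the threshold were those of Pdk4 and Angptl4 (r = 0.58, rho 0.52, permutation adjusted p = 0.0203), Ucp3 and Angptl4 (r = 0.52, rho 0.45, adjusted p = 0.0234, or 0.0573 for rho) and Ucp3 and Acsl1 (r = 0.51, rho 0.49, adjusted p = 0.0203). Pdk4 (r = 0.37 with that score, adjusted p = 0.246) and Ucp3 (0.24, adjusted p = 0.455) did not follow it past the threshold. The pairs of Pdk4 with Acsl1 (r = 0.60) and with Cd36 (r = 0.57) were lost with upper-quartile scaling (adjusted p = 0.0514 and 0.0831). The pair of Acsl1 with Pdk4 had r = 0.77 at ZT0 and ZT12 and 0.24 at ZT6 and ZT18. Lpl and Fabp3 took part in no pair past the threshold, and the most negative pair was Pdk2 and Lpl (r = -0.40, adjusted p = 0.315).

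**Figure D5:**
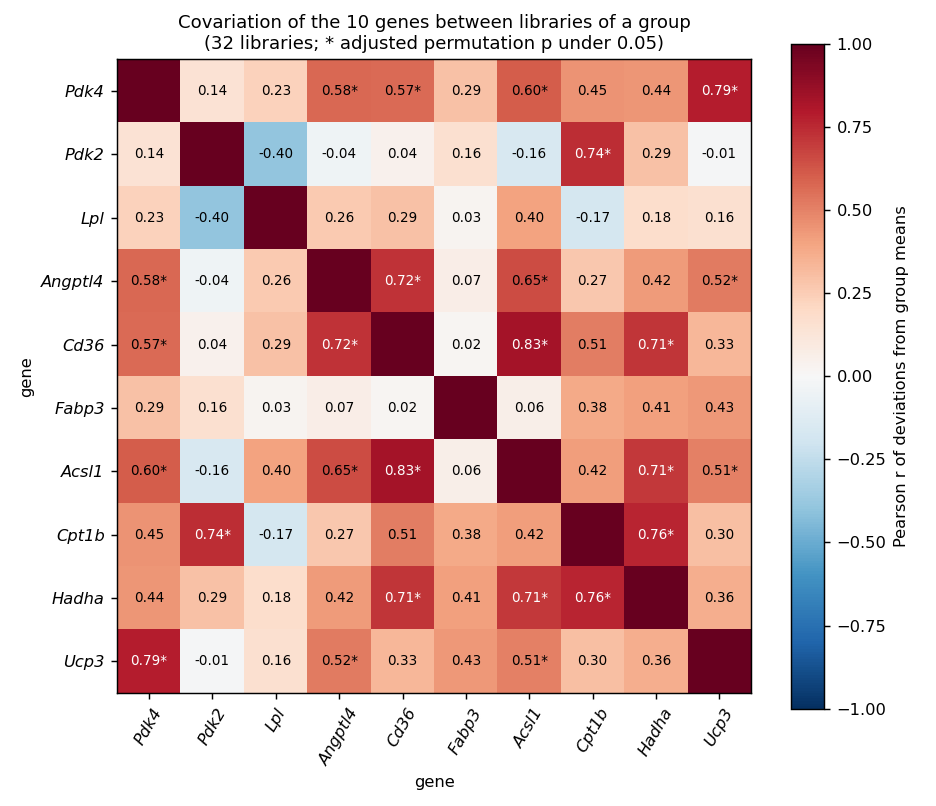
Pearson r between the deviations of each pair of genes from their group means (log2(FPKM + 1), 32 libraries), red for positive and blue for negative, with an asterisk where the permutation p adjusted over 45 pairs was under 0.05. The 13 marked pairs are all positive, led by Cd36 with Acsl1 (0.83) and Pdk4 with Ucp3 (0.79), and no pair of Lpl or Fabp3 is marked.

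The genes with the most similar patterns over the 32 libraries were sought among 11826 tested genes without an exact 0, by Pearson r of log2(FPKM + 1), as a description. Pdk4 and Ucp3 were each other's nearest gene among those searched (r = 0.83). Next for Pdk4 were Slc25a22 (0.77), a mitochondrial glutamate carrier, and Khdrbs1 (0.73), and for Ucp3 Mat2a (0.82), of methionine metabolism, and the kinase gene Sgk1 (0.82). For Mat2a the likeness lay in the group means, since the deviations from them had r = 0.06. Angptl4 was closest to Pck1 (0.92), the gene of phosphoenolpyruvate carboxykinase, Adora1 (0.85) and Lipe (0.83), which encodes hormone-sensitive lipase. Pck1 ranged from 1.63 to 172 FPKM.

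Acsl1 was closest to Plin5 (0.84), a lipid droplet protein of oxidative tissue, Acaa2 (0.81), a thiolase of beta-oxidation, and Por (0.79). Hadha was closest to Retsat (0.83), Acaa2 (0.80) and the Cpt1b entry (0.77), and the Cpt1b entry to Slc25a42 (0.85), a mitochondrial coenzyme A carrier, Wipi2 (0.83) and Cpt2 (0.80), the partner enzyme of CPT1 on the inner membrane. Cd36 was closest to Rab34 (0.88), Agmo (0.85) and the catalase gene Cat (0.84). Lpl was closest to Erg (0.80), an endothelial transcription factor gene, Eci2 (0.79) and Ddx24 (0.77), and Pdk2 to Map1lc3b (0.89), an autophagy gene, R3hdm4 (0.87) and Bag6 (0.87). Fabp3 had the least similar neighbours, AU040320, Coprs and Mrpl32, at r of 0.65, 0.65 and 0.64.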

How the data were processed

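RNA of mouse gastrocnemius was sequenced from stranded mRNA libraries (single reads of 100 cycles), per the labels' protocols. The authors deposited 1 table of FPKM values (scaled by transcript length and library size) with 32 columns. The genome build is mm10, per the submitters' processing notes, and the aligner and the program that made the FPKM values are not given in the sources used here. Columns were tied to groups by genotype and time in their names, and library numbers (0 to 3) to no mouse. Because depth is unknown, no counting interval could be given.

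Values were tested as log2(FPKM + 1) for the 11975 of 16634 genes with at least 1 FPKM in 4 libraries, with limma 3.58.1 in R 4.3.3 (8 group means, trended prior, 24 residual degrees of freedom), adjusted by Benjamini-Hochberg over all genes and called under 0.05. Fold changes on this scale understate those of low genes. Ratios and correlations were tested by 100000 permutations within genotype, time or group (Python 3.11.15, numpy 2.4.6, scipy 1.17.1). Tests of correlations and of ratios between genotypes were two-sided. Tests of ratios between times used the spread of the 4 time means (upper tail), not the highest minus lowest difference given beside them. The fits were tested on simulated data. All 10 members are named, with up to 4 genes of smallest p per pathway list and the 3 nearest genes of each member. The members and lists were chosen with earlier results of these data known. Alternatives were pseudocounts of 0.1 and 5, filters, scaling, weights, covariates and each library left out. The fit without 3 mutant libraries, the brown adipocyte covariate and the marker correlations were chosen after seeing the data. The result of 1 pathway list is not reported here.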

Additional observations from a re-analysis of the deposited data

Results flagged for a closer look

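In 4 of 80 groups of 4 libraries (10 genes in 8 groups), 1 library stood apart from the other three by more than Dixon's 95% limit (0.829 of the range). About 1 in 20 groups would do so by chance. Angptl4 in control ZT6 library 3 was 14.03 FPKM, against 4.03 to 5.15 in the others of its group, and in mutant ZT0 library 1 it was 6.11 FPKM, against 1.47 to 2.13. Both libraries had the highest adipocyte sum of their group, 1543 and 2555 FPKM. The Cpt1b entry in control ZT12 library 2 was 151 FPKM, against 132 to 134. Fabp3 in mutant ZT12 library 0 was 137 FPKM, against 62.6 to 75.1, and it is the library through which the genotypes overlap at that time.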

How the results depend on the processing

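The rhythms of Pdk4 and Ucp3 over both genotypes, the rhythm of Ucp3 in each genotype, and the ZT6 minus ZT18 differences of Pdk4 and Ucp3 kept their direction and their call under every alternative run. The other calls were less firm, with 4 libraries a group and an unknown depth. The causes of the changes below were not tested.

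The count of members past the threshold for the rhythm over both genotypes, 3 of 10, was 5 with array weights, with adipocyte and slow fibre covariates, and with adipocyte and brown adipocyte covariates. In controls it was 2, in place of 1, with array weights, with adipocyte and brown adipocyte covariates, and when other groups were kept out of the fit. In mutants it was 1, in place of 2, without a filter, with adipocyte and brown adipocyte covariates, without 3 mutant libraries together and when control groups were kept out of the fit, it was 4 with adipocyte and slow fibre covariates, and it ranged from 1 to 2 with each library left out. For ZT0 minus ZT12 the members' count was 0, in place of 1, with array weights, with the endothelial covariate and without the 3 mutant libraries, and ranged from 0 to 2 with each library left out. With adipocyte and slow fibre covariates, and with adipocyte and brown adipocyte covariates, that count stayed 1. The member called was then Angptl4 (limma adjusted p = 0.00932 and 0.00918) in place of Ucp3. For ZT6 minus ZT18 the count was 6, in place of 3, with array weights, and for the genotypes at ZT12 it was 1, in place of 0, without the 3 mutant libraries. Acsl1 lost its call in ZT6 minus ZT18 and in the rhythm over both genotypes under the alternatives given above. The count of 3 was therefore not the lowest in either test.

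Genotype differences that changed sign were small or uncalled. For Angptl4 over all times it was 0.0945 with array weights and ranged from -0.183 to 0.0752 with each library left out. With adipocyte and slow fibre covariates it was -0.0477 for Cd36, -0.0249 for Acsl1 and -2.74e-05 for Hadha. For the Cpt1b entry it was 0.0113 with the endothelial covariate and ranged from -0.0246 to 0.0206 with each library left out. For Pdk4 it was 0.13 at ZT0 without the 3 mutant libraries, and at ZT12 it ranged from -0.0467 to 0.680 with each library left out. The Pdk4 to Pdk2 ratio between genotypes ranged from -0.48 to -0.27, the Angptl4 to Lpl ratio between genotypes from -0.14 to 0.23, and that ratio between times from 1.34 to 1.98, with each library left out. Of 45 member pairs, 11 in place of 13 correlated past the threshold with upper-quartile scaling.

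No paired analysis was possible because the numbers of the table's columns are tied to no mouse, litter or batch, and the labels of the samples give no replicate number.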
